A study of Mus musculus with 39 samples.

Results

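The desmosome genes examined here are 10 of the 39017 genes in a table of RNA sequencing counts from 39 libraries of sorted mouse pancreatic tumour cells. They are the desmosomal cadherins Dsg2, Dsg3, Dsc2 and Dsc3, the armadillo-family plaque genes Jup, Pkp1, Pkp2 and Pkp3, the plakin gene Dsp, and Perp, which encodes a tetraspan membrane protein of the junction. They were chosen by their symbols, from their known place in the desmosome, with earlier results of these data known. The measured values chose no member, but the level of heart transcripts in each library chose the libraries that are also described apart. The tumour cells, whose library names carry the tag yfp, were sorted from tumours grown under the skin of C57BL/6 mice for 3 weeks, with no treatment given. The design set tumours with few T cells against tumours with many. The labels give 6 clones (14 libraries) as T cell high and 9 clones (18 libraries) as T cell low. Clones yfp_6422c5 and yfp_7160c5, with 4 libraries in all, were given as intermediate, while 3 clones with 1 library each had no class and entered no comparison.

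The T cell high clones were yfp_2838c3, yfp_6499c4, yfp_6555c3, yfp_6556c4, yfp_6620c1 and yfp_7160c2. The T cell low clones were yfp_2699c4, yfp_6419c1, yfp_6419c4, yfp_6419c5, yfp_6421c2, yfp_6422c1, yfp_6499c3, yfp_6556c3 and yfp_6694c2. The names were read as a parent tumour line followed by a clone number, so some clones share a parent line and may not be independent. No genotype, transgene or age was given in the labels used here. Whether the libraries of one clone came from separate mice is not stated, so counts were summed per clone, and p-values measure the spread between these sums only. Where clones are compared within a parent line, single libraries were used instead, and p-values there measure how far libraries of a clone differ, be that technical or not.

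Desmosomes are spot-like junctions that hold epithelial cells together and anchor their keratin filaments. Desmogleins (Dsg) and desmocollins (Dsc) span the membrane and bind those of the next cell, while plakoglobin (Jup) and the plakophilins (Pkp) join their tails to desmoplakin (Dsp), which binds the filaments. Dsg2, Dsc2 and Pkp2 are the widespread forms of simple epithelium and heart muscle, whereas Dsg3, Dsc3 and Pkp1 are best known from stratified epithelium such as skin.

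Libraries fell into 2 kinds by heart transcripts. In 20 libraries of 17 clones the summed level of Myh6, Myh7, Myl2 and Mb was at most 0.235 CPM, the unit of counts divided by the library total used throughout, and these are called heart-free. In the other 19 libraries, called heart-bearing, the sum was 152 to 4893 CPM, and summed liver transcripts stood at 481 to 15887 CPM against 0.0803 to 241 CPM in heart-free libraries. The kinds rest on Myh6, Myh7, Myl2 and Mb only. Tnnt2, another heart gene, had medians of 109 CPM in heart-free libraries, where it reached 685 CPM, and 567 CPM in heart-bearing ones. Tnni3, Actc1, Nppa, Pln and Ryr2 each reached at most 4.42 CPM in heart-free libraries. Summed with Tnnt2, they reached 687 CPM in a heart-free library and stood as low as 140 CPM in a heart-bearing one. Library totals ran from 7638130 to 103794674 counts. Of the T cell classes, 8 high libraries of 6 clones and 9 low libraries of 8 clones were heart-free. The summed level of 7 tumour epithelial genes, among them Krt8, Krt18 and Cdh1, was 4524 to 12702 CPM in heart-free libraries and 3723 to 10356 CPM in heart-bearing ones, so epithelial transcripts were abundant in all. Of the 8 keratinocyte markers, Krt1, Krt2, Flg2 and Krtdap had medians of at most 0.0253 CPM in heart-free libraries, while Ivl, Krt10, Lor and Sbsn had medians of 10.04, 6.93, 6.26 and 4.10 CPM. Ivl reached 90.6 CPM in a heart-free library and had a median of 47.3 CPM in heart-bearing ones. Leukocyte markers summed to 19.7 to 417 CPM and fibroblast markers to 96.6 to 17623 CPM in heart-free libraries. Other cell types may thus have been among the sorted cells, which was not tested.

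Of the 10 genes, 8 were read in every library and 2 were close to absent. Levels between genes are compared as CPM per kilobase of exon, over the 20 heart-free libraries. On that scale Jup had a median of 54.1 and a range of 31.2 to 68.8, and Perp a median of 51.7 and a range of 22.6 to 77.0, so these overlapped. Dsp followed at a median of 28.8 (11.1 to 101.2). Pkp2 had a median of 11.2, Dsg2 of 10.01 and Pkp3 of 7.39, and the ranges of these 3 overlapped. Dsc2 had a median of 4.31 (0.576 to 15.2) and Pkp1 of 2.39 (0.150 to 20.7). Dsg3 had a median of 0.0116 and Dsc3 of 0 CPM per kilobase. Each widespread form thus stood above the stratified form of its own family in median level, Dsg2 above Dsg3, Dsc2 above Dsc3 and Pkp2 above Pkp1.

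**Figure D1:**
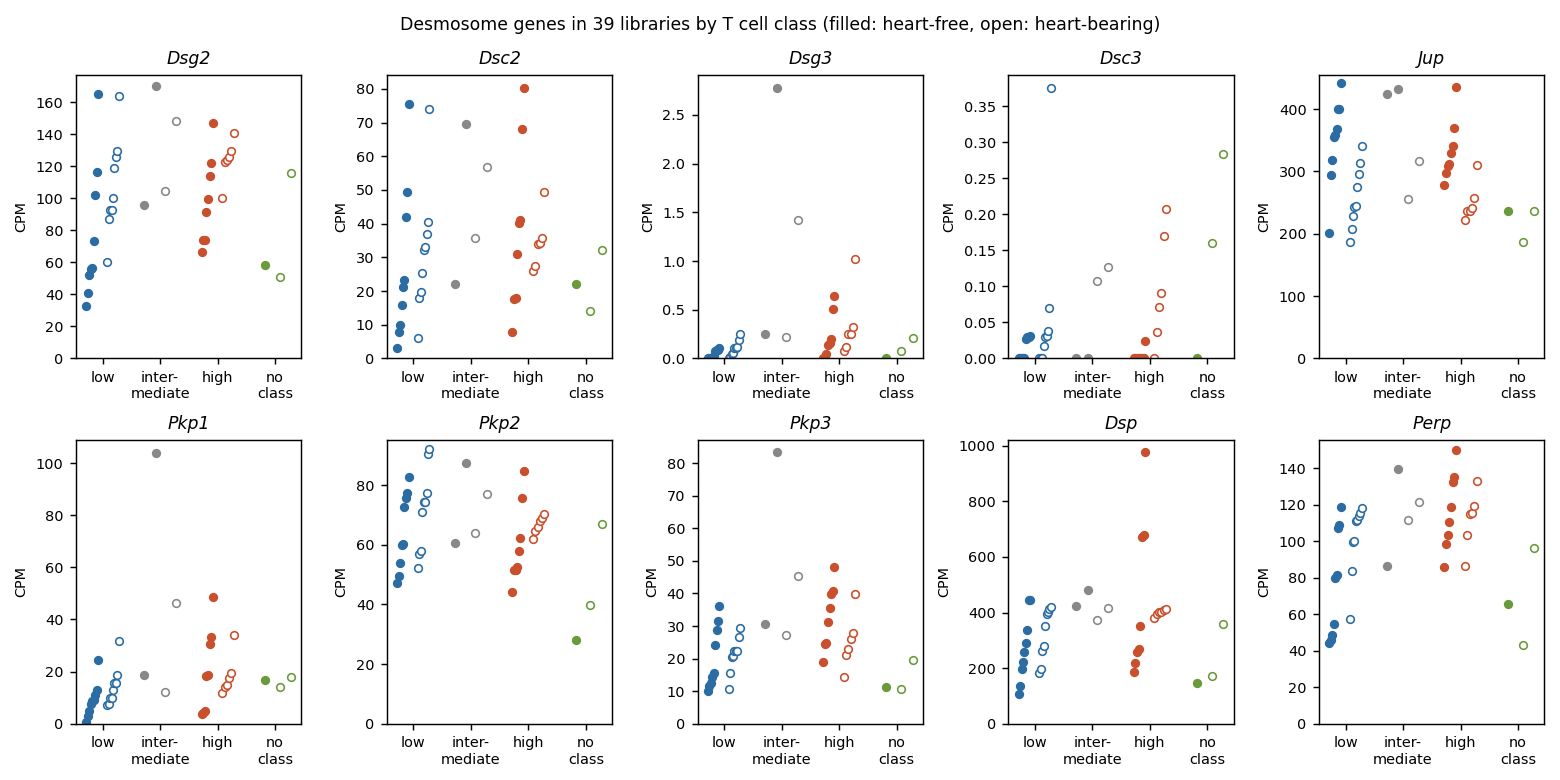
CPM of each desmosome gene (vertical axis, linear, a scale of its own per gene) in the 39 libraries, by T cell class on the horizontal axis. Filled points are heart-free and open points heart-bearing libraries, and within a class points are spread sideways only to be seen. Every gene overlaps between the low and high classes, and Dsg3 is highest in 1 intermediate library at 2.78 CPM.

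Start-site sequence was at hand for 2 of the 10 genes, Dsp and Jup, in the RefSeq table for GRCm38.p6. They are shown because they are the plaque genes with the highest levels per kilobase. Each window holds 250 bases before the annotated start and 30 bases from it, 5′ to 3′ on the gene's own strand. Both strands were searched for CAGGTG, a sequence that Zeb and Snail repressors can bind, and for AACCGGTT, which Grainyhead-like activators can bind. Capitals mark a match.
Dsp, chr13:38151044-38151323, plus strand: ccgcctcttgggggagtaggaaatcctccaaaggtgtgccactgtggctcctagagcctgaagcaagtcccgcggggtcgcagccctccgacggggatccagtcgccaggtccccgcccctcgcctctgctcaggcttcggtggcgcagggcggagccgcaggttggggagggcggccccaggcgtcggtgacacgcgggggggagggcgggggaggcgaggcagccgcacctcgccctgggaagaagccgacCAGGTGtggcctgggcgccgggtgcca
Jup, chr11:100397761-100398040, minus strand: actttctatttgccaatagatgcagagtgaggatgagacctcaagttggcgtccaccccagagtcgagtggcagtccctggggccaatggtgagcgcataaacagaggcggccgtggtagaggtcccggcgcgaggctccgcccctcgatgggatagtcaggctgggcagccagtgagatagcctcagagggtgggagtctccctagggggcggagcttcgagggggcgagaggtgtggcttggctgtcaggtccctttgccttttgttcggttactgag
The Dsp window held 1 CAGGTG, which begins 3 bases past the start, and 0 AACCGGTT. The Jup window held neither. Of 32851 windows of this length, 6259 (19.1%) held CAGGTG and 43 (0.131%) held AACCGGTT on either strand. These matches describe letters and were not tied to any level.

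Among the cadherins, Dsg2 was measured in every heart-free library at 33.0 to 170.4 CPM. The lowest library was of T cell low clone yfp_2699c4 and the highest of intermediate clone yfp_7160c5. Dsc2, its desmocollin partner, ran from 3.04 CPM in low clone yfp_6694c2 to 80.4 CPM in high clone yfp_6620c1, a 26.4-fold range. Dsg3, the main cadherin antigen of the blistering disease pemphigus, had 177 counts over all heart-free libraries and was at 0 in 7 of them. In those 7, a count of 0 allows up to 0.0777 to 0.112 CPM, at 3 counts and for counting error only. Dsc3 had 5 counts in total there and was at 0 in 15 of 20 libraries, against 63 more counts in heart-bearing libraries. The 4 cadherin genes lie together on chromosome 18 (GRCm38, 19960930 to 20604521), yet Dsg2 and Dsc2 were read in every library and Dsg3 and Dsc3 in some only.

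Among the plaque genes, Jup was the steadiest, at 201 to 443 CPM in heart-free libraries, a 2.20-fold range. Pkp2 spanned 28.2 to 87.4 CPM (3.10-fold) and Pkp3 10.001 to 83.5 CPM (8.35-fold). Pkp1 varied most of the 8 abundant genes, from 0.755 CPM in one library of yfp_2699c4 to 103.8 CPM in yfp_7160c5, a 137-fold range. Dsp spanned 107 to 978 CPM (9.10-fold), with all 3 heart-free libraries of yfp_2838c3 at the top at 672, 679 and 978 CPM. Perp, a target gene of p53 and p63 needed for desmosome assembly in skin, spanned 44.1 to 150.3 CPM (3.40-fold).

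Only 2 clones had more than 1 heart-free library, and they show how far libraries of one clone can differ. In yfp_2838c3, Perp was at 85.8, 150.3 and 98.4 CPM and Pkp3 at 19.1, 39.9 and 24.8 CPM in tumours 2, 3 and 4. Dsc2 in these was at 7.97, 17.7 and 17.8 CPM. In yfp_2699c4, Pkp1 was at 2.92 and 0.755 CPM and Dsp at 134 and 107 CPM in tumours 3 and 4. Perp within yfp_2838c3 thus ran more widely than the 103 to 135 CPM of the 6 high clones.

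**Figure D2:**
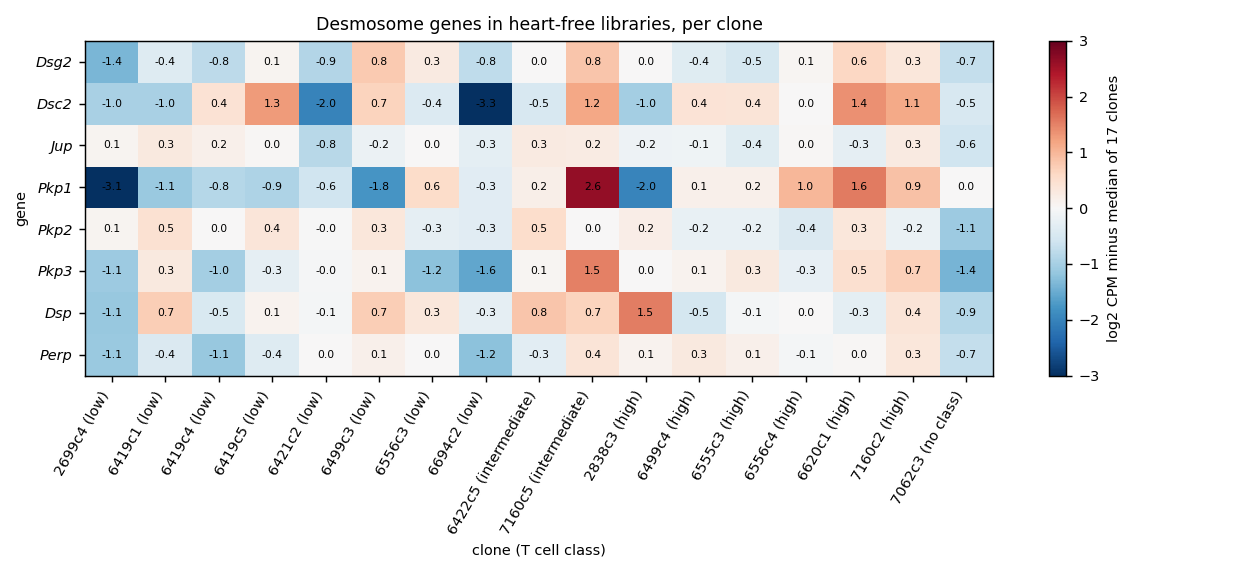
Log2 CPM of the 8 abundant desmosome genes in each of 17 clones with heart-free libraries, minus the gene's median over these clones (colour, clipped at 3 on either side, with the value printed). Clones are on the horizontal axis with their T cell class. Pkp1 and Dsc2 hold the most extreme cells, and Dsp stands out in yfp_2838c3.

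The question of the design was whether tumour cells of T cell high and T cell low clones differ, and for the desmosome genes no difference passed the test. In heart-free libraries the plakophilins Pkp1 and Pkp3 and the p53 and p63 target Perp were at higher mean levels in high clones, while Jup, Pkp2 and Dsp were close or spread widely. Pkp1 was at 25.6 ± 15.4 CPM (SD, n = 6 clones) against 10.1 ± 6.71 CPM (n = 8). Pkp3 was at 35.0 ± 8.55 against 21.4 ± 9.995 CPM, and Perp at 119 ± 12.4 against 80.2 ± 29.8 CPM. No gene of the 8 tested separated the classes fully: 0 of 8 had clones that did not overlap, where 0.313% of all genes tested did (49 of 15635), and over all libraries 0 of 8 where 0.124% did (23 of 18551). In a bulk sample, a smaller share of cells of one type cannot be told apart from less RNA per cell.

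Per clone, Perp in heart-free libraries ran in high clones from 103 CPM in yfp_6556c4 over a median of 117 to 135 CPM in yfp_7160c2. In low clones it ran from 45.7 CPM in yfp_6694c2 over a median of 80.8 to 119 CPM in yfp_6499c3. All 6 high clones lay above the low median, and 5 low clones lay below every high clone. The log2 difference was 0.59 ± 0.21 (SE, unadjusted p = 0.0156, adjusted p = 0.295 by edgeR). Pkp1, which can stabilise desmosomes and is enriched in the upper skin, ran from 4.18 CPM in yfp_2838c3 over 24.6 to 48.6 CPM in yfp_6620c1 in high clones. In low clones it ran from 1.89 CPM in yfp_2699c4 over 8.95 to 24.3 CPM in yfp_6556c3. For Pkp1, 3 high clones lay above every low clone and yfp_2838c3 lay among the low ones. The Pkp1 difference was 1.36 ± 0.52 (p = 0.0193, adjusted p = 0.313), and that of Pkp3 was 0.71 ± 0.28 (p = 0.0254, adjusted p = 0.336).

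The abundant cadherins differed less than they varied. Dsg2 had medians of 97.8 CPM in high (66.5 to 147) and 64.8 CPM in low clones (37.1 to 165), a log2 difference of 0.31 ± 0.30 (adjusted p = 0.670). Dsc2 had medians of 40.7 (15.2 to 80.4) and 19.6 CPM (3.04 to 75.4), a difference of 0.69 ± 0.56 (adjusted p = 0.601). The class ranges thus overlapped almost whole for both. For Dsg2, all 6 high clones still lay above the low median. Of the 8 low clones, 4 lay below every high clone and 1 above every high clone. For the plaque, Jup had medians of 326 (278 to 435) and 364 CPM (201 to 443), a difference of -0.019 ± 0.17 (adjusted p = 0.971). Pkp2 had medians of 52.1 (44.3 to 75.7) and 62.0 CPM (47.3 to 82.7), a difference of -0.17 ± 0.15 (adjusted p = 0.635).

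Dsp, the link to keratin filaments, was set in this comparison by 1 clone. High clones were at 185 CPM in yfp_6499c4, then 218, 257, 268 and 353, and 781 CPM in yfp_2838c3, and low clones at 122 to 445 CPM with a median of 273. Without yfp_2838c3 every high clone lay inside the low range. The log2 difference was 0.25 ± 0.34 with that clone (adjusted p = 0.781) and -0.16 without it. Over all libraries it was 0.30 ± 0.21 with that clone and 0.075 without it. In the same clone Pkp1 and Dsc2 were the lowest of the 6 high clones.

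Over all libraries, 0 of 8 desmosome genes passed an adjusted p under 0.05, as did 0 of 18551 genes (0%). At an unadjusted p under 0.05 the count was 1 of 8, Pkp3, against 11.7% of all genes (2176). In heart-free libraries 0 of 8 and 0 of 15635 genes passed (0%), and 3 of 8, namely Pkp1, Pkp3 and Perp, had an unadjusted p under 0.05 against 13.4% of all genes (2095). Of the 8 differences, 6 were above 0 in both, with a median of 0.31 over all libraries and 0.45 in heart-free ones, where the medians of all genes tested were -0.013 and -0.0023. DESeq2 on the same sums called 123 genes over all libraries and 299 in heart-free ones, and 0 desmosome genes in either. Differences over all libraries were 0.71 ± 0.38 for Pkp1, 0.46 ± 0.21 for Pkp3, 0.35 ± 0.17 for Perp and 0.32 ± 0.43 for Dsc2. Those of Dsg2, Jup and Pkp2 were 0.24 ± 0.21, -0.13 ± 0.14 and -0.22 ± 0.13, and adjusted p over the 8 ran from 0.416 to 0.751. In heart-bearing libraries alone the Pkp1 difference was 0.24, that of Pkp3 0.20 and that of Perp 0.066. Heart sums there were 2553 to 4872 CPM in high and 152 to 4893 CPM in low libraries, and the part of these transcripts in the smaller differences was not tested.

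**Figure D3:**
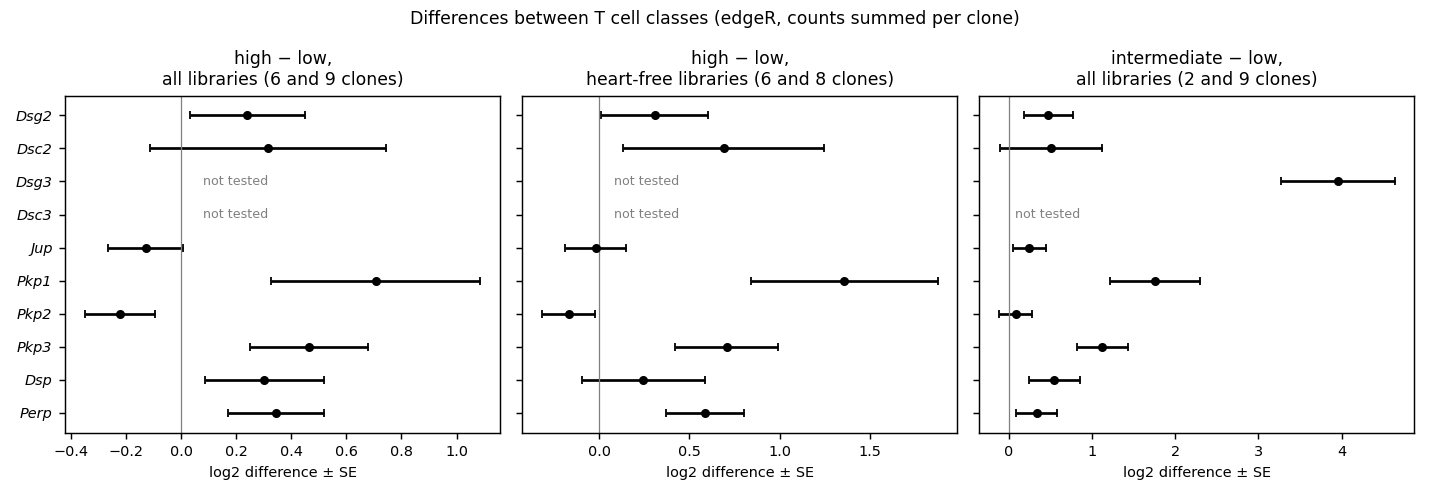
Log2 differences between T cell classes for each desmosome gene, as points with the SE of the edgeR fit as bars, on a horizontal axis of its own per panel. High minus low is shown over all libraries and over heart-free libraries, and intermediate minus low over all libraries. Genes marked as not tested had too few counts, and no point in any panel passed an adjusted p of 0.05. In the intermediate panel Dsg3 passed the count filter through high and intermediate clones only.

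The skin cadherins fell under the count filter in both of these comparisons. Without a filter, Dsg3 differed by 2.02 ± 0.51 over all libraries (p = 0.00104, adjusted p = 0.347 over 29592 genes) and by 2.50 ± 0.80 in heart-free libraries (adjusted p = 0.332). Per clone in heart-free libraries it was at 0.0190 CPM in yfp_2838c3 and 0.134 to 0.636 CPM in the other 5 high clones, and at 0 to 0.103 CPM in the 8 low clones. Thus 5 of 6 high clones lay above every low clone, at levels that rest on few reads. Dsc3 was at 0 in 5 of 6 high and 5 of 8 low clones in heart-free libraries, so no difference was detectable at this depth.

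Marker levels in the heart-free libraries were as follows beside these results. Leukocyte markers had a median sum of 141 CPM in high libraries (26.1 to 372) and 87.7 CPM in low libraries (25.0 to 228). Fibroblast markers had medians of 517 CPM (96.6 to 17623) and 976 CPM (213 to 5955). Keratinocyte markers had medians of 33.8 CPM (13.2 to 80.7) and 31.8 CPM (16.4 to 49.1). Their part in the Pkp1, Pkp3 and Perp values was not tested. Neither class was apart from the other in any of these 3 sums.

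Heart-bearing libraries showed a narrower spread of desmosome genes than heart-free libraries of the same clones. Over the 15 clones with both kinds, the SD of log2 CPM was smaller in heart-bearing libraries for 8 of 8 abundant genes, for example 0.66 against 1.40 for Pkp1, 0.38 against 0.66 for Dsp and 0.28 against 0.48 for Perp. This was general, since 91.3% of 10877 genes did likewise, with median SDs of 0.24 and 0.36. In the 6 high clones Dsp was at 381 to 413 CPM in heart-bearing libraries and 185 to 781 CPM in heart-free ones. In yfp_2699c4 it was at 122 CPM heart-free and 386 CPM heart-bearing, and in yfp_2838c3 at 781 and 394 CPM, so both ends moved towards the same level.

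In 7 libraries of 7 clones the heart sum was above 4000 CPM, and there the abundant desmosome genes lay in narrow ranges. Dsp was at 402 to 421 CPM in these, Dsg2 at 119 to 129.6 CPM and Jup at 229 to 257 CPM. Perp was at 103 to 119 CPM, Pkp2 at 64.8 to 74.5 CPM, Pkp3 at 20.7 to 27.9 CPM, Pkp1 at 12.9 to 19.4 CPM and Dsc2 at 27.5 to 40.3 CPM. The rare Dsg3 and Dsc3 ran from 0.104 to 0.326 and from 0 to 0.376 CPM. The 7 clones are of both the high and the low class, and their heart-free levels of Dsp ran from 122 to 445 CPM. Levels this close across clones may not be those of each clone alone, which was not tested, and every value over all libraries includes these libraries. Jup was lower in the heart-bearing libraries of 13 of the 15 clones, with a median log2 change of -0.49, while the other 7 abundant genes had medians from -0.26 for Pkp3 to 0.21 for Dsg2. No test was made between the kinds, since they were set by measured values.

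**Figure D4:**
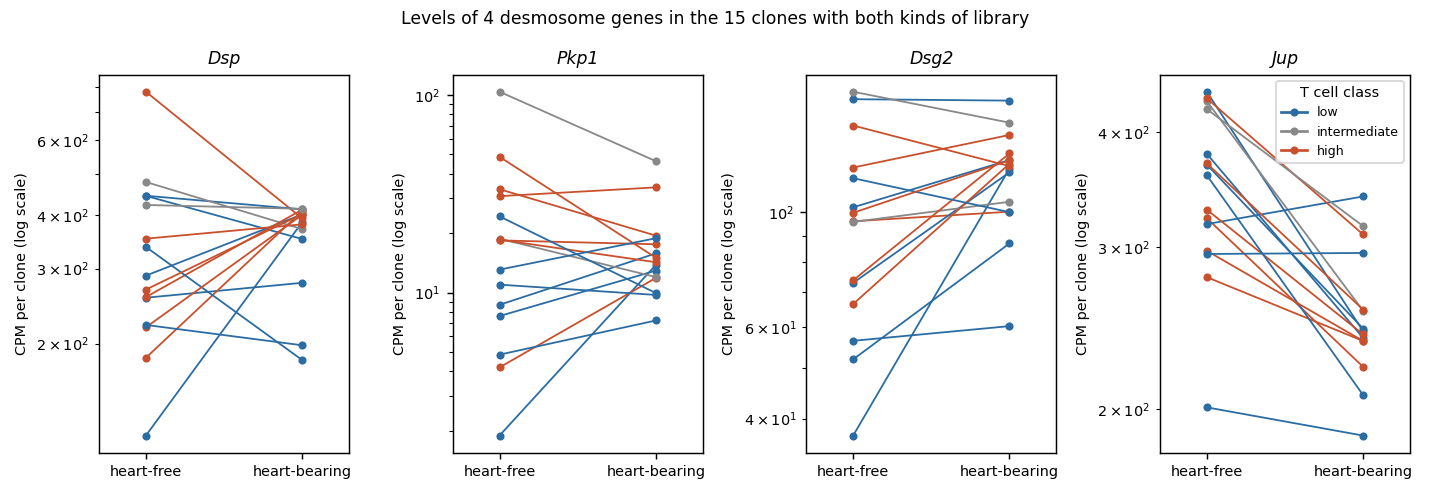
CPM per clone (vertical axis, log scale) of Dsp, Pkp1, Dsg2 and Jup in heart-free and heart-bearing libraries, with a line for each of the 15 clones that had both, coloured by T cell class. Lines converge towards the heart-bearing side for Dsp, Pkp1 and Dsg2, and 13 of 15 lines slope down for Jup.

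The parent line of yfp_6499c4 and yfp_6499c3 and that of yfp_6556c4 and yfp_6556c3 each gave a high and a low clone, in that order, so class can be compared within a line, over single libraries. Pkp1 was higher in the high clone of both lines in heart-free libraries, at 18.4 against 4.86 CPM in the first line (3.78-fold) and 33.3 against 24.3 CPM in the other (1.37-fold). Dsp went the other way in both, at 185 against 445 CPM and 268 against 337 CPM, and so did Dsg2, at 73.9 against 165 CPM and 99.6 against 116 CPM. Perp was at 132 against 119 CPM in the first and 103 against 108 CPM in the other. Pkp3 was at 31.3 against 31.6 CPM and 24.6 against 12.6 CPM. Each of these values is from a single heart-free library.

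Over both kinds of library and with the line as a block, 0 of 8 desmosome genes and 0 of 16879 genes passed in edgeR (0%). In both lines the heart-bearing library of the high clone had a heart sum above 4000 CPM, and that of the low clone lay under this level. Class and heart transcripts thus differed together in these libraries, and the part of these transcripts in the differences over both kinds was not tested. Pkp1 alone had an unadjusted p under 0.05, with a log2 difference of 1.13 ± 0.42 (p = 0.0289, adjusted p = 0.499), beside 8.98% of all genes (1516). The other 7 differences ran from -0.32 ± 0.23 for Dsg2 to 0.46 ± 0.25 for Pkp3, with 4 of 8 above 0 and a median of -0.019, against 0.064 over all genes. DESeq2 called 485 genes and 0 of the 8. With heart-free libraries alone Dsp differed by -0.69 and Dsc2 by 0.19, where the values over both kinds were -0.041 and -0.18.

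The 2 intermediate clones differed from each other in the cadherins, plakophilins and Perp, and less in Jup and Dsp. In heart-free libraries yfp_7160c5 had the highest Pkp1, Pkp3, Dsg2, Dsg3 and Perp of the 16 clones with a class, at 103.8, 83.5, 170.4, 2.78 and 139.6 CPM, each from 1 library. In yfp_6422c5 the same genes were at 18.7, 30.6, 95.7, 0.250 and 86.4 CPM, all inside the range of the high clones or, for Perp, of the low ones. Jup was at 424 and 432 CPM and Dsp at 423 and 479 CPM in yfp_7160c5 and yfp_6422c5. The heart-free library of yfp_7160c5 had a leukocyte sum of 417 CPM, the highest of the 20, and its part in these levels was not tested.

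Against low clones, 0 of 9 desmosome genes passed in one edgeR fit of 17 clones, where 1 of 20028 genes did (0.00499%). Of the 9, 3 had an unadjusted p under 0.05, against 5.04% of all genes (1009). These were Pkp1 with a log2 difference of 1.75 ± 0.54 (adjusted p = 0.559), Pkp3 with 1.12 ± 0.31 (adjusted p = 0.401) and Dsg3 with 3.95 ± 0.68 (adjusted p = 0.216). The count filter asks for reads in as many clones as the smallest group holds, 2 here against 6 in the high minus low fits. Dsg3 passed it here through high and intermediate clones, where it is highest, and through no low clone, so its values are a description and support nothing. Without a filter its difference was 3.94 ± 0.68 (adjusted p = 0.179 over 29788 genes). Against high clones, 0 of 9 and 0 of 20028 genes passed (0%), DESeq2 called 0 genes, and 1 of 9, Dsg3 at 1.92 ± 0.75, had an unadjusted p under 0.05 beside 2.07% of all genes (414). All 9 differences were above 0 in both comparisons, with medians of 0.51 and 0.32 against -0.0024 and 0.013 over all genes. Both comparisons use the same 2 intermediate clones, and the counts and medians include Dsg3. By tool and clone the Dsg3 call varied. DESeq2 called it against low clones (3.97, adjusted p = 0.00875) among 18 genes. Without yfp_6422c5 edgeR called it as well (4.77, adjusted p = 0.0121) among 99 genes, and without yfp_7160c5 the difference was 1.83, so the value rests on yfp_7160c5.

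Clones yfp_7160c5 and yfp_7160c2, of one parent line, had the most Dsg3 reads. The heart-free library of yfp_7160c5 had 93 counts (2.78 CPM) and that of the high clone yfp_7160c2 had 23 counts (0.636 CPM). Their heart-bearing libraries stood at 1.42 and 1.02 CPM, also the highest 2 of that kind. Pkp1 was 3.38-fold and Pkp3 1.73-fold higher in yfp_7160c5 than in yfp_7160c2, at 103.8 against 30.8 CPM and 83.5 against 48.3 CPM. Dsc2, Jup and Perp differed by at most 1.03-fold between these sisters. The keratinocyte markers of the 2 heart-free libraries summed to 47.3 and 40.4 CPM, within the 13.2 to 108 CPM of all heart-free libraries.

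Genes that work beside the desmosome gave no call in edgeR either, over all or heart-free libraries. Of 5 tested among 9 paralogues and plaque partners over all libraries, 0 passed, 0 had an unadjusted p under 0.05 and 2 were above 0 (median -0.063, and -0.083 over the 4 tested in heart-free libraries). The most abundant were Pkp4, at -0.063 ± 0.18, and Ppl, which encodes the plakin periplakin, at 0.32 ± 0.17. Of 9 adherens junction genes 0 passed and 1, Ctnnb1, had an unadjusted p under 0.05, with a median of -0.067 and 3 above 0. In heart-free libraries 2 of 9 had one, Ctnnb1 and Nectin4, with a median of -0.088 and 4 above 0. Of all genes, 11.7% had one over all libraries and 13.4% in heart-free ones. Ctnnb1, which encodes the plakoglobin relative beta-catenin, differed by 0.32 ± 0.11 over all libraries (adjusted p = 0.344) and by 0.72 ± 0.15 in heart-free ones (p = 0.00023, adjusted p = 0.149). Ctnna1, which encodes alpha-catenin, differed by -0.20 ± 0.12, and Cdh1, which encodes E-cadherin, by -0.011 ± 0.18.

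Keratins, the filaments that desmosomes anchor, were 5 tested of 8, with 0 passing, 1 (Krt7) at an unadjusted p under 0.05 and a median of 0.097. In heart-free libraries their median was 0.38, with 5 of 5 above 0 and 0 passing. Krt8 differed by -0.11 ± 0.20, Krt18 by 0.097 ± 0.19, Krt19 by 0.094 ± 0.21 and Krt7 by 0.71 ± 0.27 (adjusted p = 0.362). Of 12 epithelial regulators 0 passed and 0 had an unadjusted p under 0.05 (median 0.10), with Klf4 at -0.055 ± 0.27 and Klf5 at 0.29 ± 0.15 over all libraries, the latter at 0.66 ± 0.15 in heart-free ones (adjusted p = 0.149). In heart-free libraries 10 of the 12 were tested, with 4 above 0, 1 at an unadjusted p under 0.05 and a median of -0.12. Zeb1, a repressor of epithelial genes, differed by -0.32 ± 0.16 over all libraries. Of 8 p53 targets other than Perp 0 passed and 1, Zmat3 at -0.61 ± 0.26, had an unadjusted p under 0.05 (median 0.029), with Cdkn1a at 0.095 ± 0.21 and Phlda3 at 0.23 ± 0.15. In heart-free libraries Phlda3 differed by 0.58 ± 0.15 (p = 0.0014, adjusted p = 0.195). There 2 of 7 tested had an unadjusted p under 0.05, namely Phlda3 and Zmat3, and the median was -0.040. Beside these lists, 11.7% of all genes had an unadjusted p under 0.05 over all libraries and 13.4% in heart-free ones.

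Of the pairs of abundant desmosome genes, 1 varied together across clones at an adjusted p under 0.05. Over the 16 clones with a class and heart-free libraries, Pearson's r of log2 CPM was computed for the 28 pairs of the 8 abundant genes. Of these, 25 were above 0 and the median was 0.38. The same was not computed for pairs of other genes, so whether desmosome genes exceed them was not tested. Pkp3 and Perp had r = 0.76 (permutation p = 0.00053, adjusted p = 0.0148) and Spearman's rho = 0.74 (permutation p = 0.00196, adjusted p = 0.0546). Without the 2 clones farthest from the median of Pkp3, yfp_6694c2 and yfp_7160c5, r was 0.66. This was the only pair with an adjusted p under 0.05 by Pearson's r, and 0 pairs had one by rho. Dsg2 and Perp had r = 0.68 (rho = 0.62, adjusted p = 0.0517 and 0.108), and Dsg2 and Dsc2 had r = 0.63 (rho = 0.69, adjusted p = 0.0707 and 0.0546), with 0.68 and 0.57 without the 2 farthest clones. Pkp1 and Dsp had r = 0.080, and Pkp1 and Pkp2 had r = -0.31 (adjusted p = 0.827 and 0.413). All values of a clone come from the same libraries, and clones of one parent line may not be independent.

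**Figure D5:**
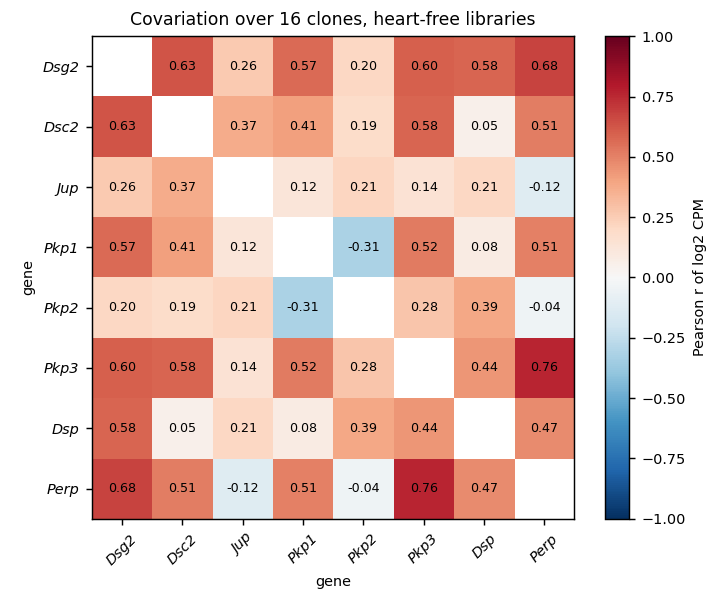
Pearson's r of log2 CPM between each pair of the 8 abundant desmosome genes over 16 clones with heart-free libraries (colour from -1 to 1, with the value printed). The cadherins, Pkp3 and Perp share the higher values, up to 0.76 for Pkp3 and Perp, while Jup and Pkp2 have low values with most genes.

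The genes whose levels were most like each desmosome gene over the same 16 clones differed from member to member. They were taken from 10557 genes and are a description with no test. For Pkp3 these were Crb3 (r = 0.95), Ppm1j (0.91) and Arhgef16 (0.91), and for Perp they were Tmem125 (0.88), Tbc1d2 (0.87) and Fxyd3 (0.86). For Dsp they were Pxk (0.94), Hhex (0.85) and Tmem127 (0.85), and for Jup they were Gabrp (0.85), Tnip1 (0.82) and Cxxc4 (0.81). For Dsc2 they were Tmtc2 (0.92), Tm4sf20 (0.87) and Arhgap27 (0.84), and for Dsg2 they were Ndufaf3 (0.83), Naip5 (0.81) and Nfatc2 (0.80). For Pkp1 they were Lrdd (0.88), F5 (0.83) and Zfp422 (0.82), and for Pkp2 they were Esrp2 (0.93), Vps37a (0.89) and Hgsnat (0.89). No gene was among the first 3 of more than 1 member.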

How the data were processed

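RNA sequencing counts of 39 libraries of sorted tumour cells were used. The authors deposited raw counts per gene as whole numbers. Per the submitters' processing notes, the tools were STAR and featureCounts and the build was mm10. Their versions, the annotation and the strand setting are not given in the sources used, so reads of antisense genes cannot be told apart. Coordinates are from GENCODE M21 on GRCm38 and start-site sequences from RefSeq on GRCm38.p6.

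Levels are CPM over the library total. For tests, counts were summed per clone and low genes were dropped by filterByExpr. TMM factors ran from 0.890 to 1.07 over 15 clones. The quasi-likelihood test of edgeR (version 4.0.16, R 4.3.3) was used, with Benjamini-Hochberg adjustment over all genes tested and a threshold of 0.05. High and low clones were compared over all libraries and over heart-free libraries, with under 10 CPM of Myh6, Myh7, Myl2 and Mb summed. The intermediate clones were compared in a fit of 17 clones. Within parent lines, single libraries were compared with the line as a block. DESeq2 1.42.0, limma 3.58.1, other scalings, no filter and other replicates were alternatives. Each clone was left out in turn for high minus low, each library within parent lines, and each of the 2 intermediate clones for theirs. Correlations used log2 (CPM + 0.5) and 100000 permutations.

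The members, lists and tests were chosen with earlier results of these data known. Named were all members, 2 to 4 of the most abundant genes of each other list, and for each member the 3 genes most correlated with it among those with a mean of at least 5 CPM over the clones. Zmat3 and Nectin4 were named beside that rule after their values were seen. In the 4 clones compared within lines, libraries with the same tumour number deviated together (correlations of 0.57 to 0.81 over 6 pairs of clones), and tumour 1 of each was heart-bearing. The number was used as a block in alternative fits, but these correlations cannot tell a pairing from the difference between heart-bearing and heart-free libraries. Over all libraries the number nearly marks that difference too. Every heart-bearing library was of tumour 1 except tumour 2 of yfp_2699c4. The only heart-free library of tumour 1 was that of yfp_7062c3, which had no class. The block over all libraries thus cannot separate the tumour number from the kind of library either.

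On simulated data with 200 changed genes, edgeR found 75% of changes of log2 1 and 97% of changes of log2 2 among 18551 genes of all libraries, and 4.44% of its calls were false. Among 15635 genes of heart-free libraries the shares were 49%, 86% and 2.88%. All these shares describe simulated counts. How far they hold for the libraries themselves, with their heart transcripts and shared parent lines, or for the desmosome genes, was not tested. The samples with no class entered no test.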

Additional observations from a re-analysis of the deposited data

Results flagged for a closer look

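Among 40 groups of 6 to 9 clones, a gap test set to flag about 1 group in 20 by chance marked 3. The 40 include the Dsc3 groups and the Dsg3 groups of T cell low clones, which were left untested for their low levels. Pkp1 over all libraries was 31.7 CPM in T cell low clone yfp_6422c1, where the next of the 9 low clones was at 16.6 CPM. That clone has 1 library, which is heart-bearing. Dsp over all libraries was 646 CPM in T cell high clone yfp_2838c3, against 369.9 CPM in the next of 6 high clones. In heart-free libraries Dsp was 781 CPM in the same clone, against 353 CPM in the next. All 3 of its heart-free libraries, at 672, 679 and 978 CPM, were above every other library of any clone. They are also part of its value over all libraries, so the Dsp flags are not independent.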

How the results depend on the processing

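The count of desmosome genes called for high minus low stayed at 0 in each alternative run, over all libraries, in heart-free libraries and within parent lines. Leaving out one clone at a time (single libraries within lines) gave 0 to 0 called members in these 3. The fit with the tumour number as a replicate block also gave 0, over all libraries and within lines, and reversed Jup within lines (-0.030). The block changed no call of a desmosome gene. The 8 differences over all libraries kept their sign throughout. For intermediate minus low, DESeq2 called 1 (Dsg3), and leaving out either intermediate clone gave 0 to 1, all of it Dsg3, which the filter let in as described. Counts of all genes were less stable. Over all libraries edgeR called 0, 9 with libraries as replicates, 13 with the block added, 16 without yfp_2838c3 and 1 without yfp_6421c2, and in heart-free libraries 0, 1 with libraries as replicates, 37 without yfp_2838c3 and 1 without yfp_6694c2. For intermediate minus low it called 1, and 0 in heart-free libraries. Reversals without a left-out clone were Jup in heart-free libraries (0.026 with upper-quartile scaling, 0.050 with parent lines as replicates), Jup and Perp within lines with no filter (-0.045, -0.018), Dsc2 within lines in heart-free libraries (0.19), and for intermediate minus high Perp (-0.0020 with DESeq2, -0.069 in heart-free libraries) and Dsc2 (-0.013 in heart-free libraries). With one clone left out (a library within lines, an intermediate clone in the last 2 comparisons), differences ran as follows. In heart-free libraries Jup ran from -0.10 to 0.058 and Dsp from -0.16 (without yfp_2838c3) to 0.39. Within lines Jup ran from -0.23 to 0.15, Dsp from -0.30 to 0.19, Perp from -0.064 to 0.092 and Dsc2 from -0.39 to 0.029. For intermediate minus low Dsc2 ran from -0.11 to 0.95 and Pkp2 from -0.26 to 0.38. For intermediate minus high the ranges were -0.0037 to 0.49 (Dsg2), -0.19 to 2.74 (Dsg3), -0.40 to 0.65 (Dsc2), -0.25 to 1.74 (Pkp1), -0.12 to 0.15 (Perp) and -0.016 to 0.62 (Pkp2). The causes were not tested. Dsc3 had 5 counts in heart-free libraries.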

Other observations

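The labels gave no class for 3 clones, with 1 library each. The heart-free library of yfp_7062c3 had the lowest Pkp2 of all 39 libraries at 28.2 CPM, with Dsp at 147, Jup at 237, Perp at 65.7, Dsg2 at 58.0, Dsc2 at 22.2, Pkp1 at 16.6 and Pkp3 at 11.2 CPM. Dsg3 and Dsc3 were at 0 there. The heart-bearing library of yfp_6883c1 had the lowest Dsp of its kind at 172 CPM and the lowest Perp of all libraries at 42.9 CPM, with Pkp2 at 39.7, Dsg2 at 51.0 and Jup at 186 CPM. It also had the lowest tumour epithelial sum of all 39 libraries, 3723 CPM, beside a fibroblast sum of 5763 CPM. The part of these in its desmosome levels was not tested. The heart-bearing library of yfp_6883c4, read as a clone of the same parent line, had Dsp at 358, Perp at 96.5, Pkp2 at 66.8, Dsg2 at 115.5 and Jup at 236 CPM.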
